A study of Mus musculus with 2 samples.

Results

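The 32 genes described here encode the glycolytic pathway with its glucose and lactate carriers (23 genes) and a set of hypoxia-responsive genes with the oxygen-sensing machinery itself (9 genes). Members were taken by gene name, and a gene entered when at least 1 probe set of the array carried its symbol and no other. This held for 29 of the 32, among 18194 genes named in the same way. Gpi1, Eno1 and Bnip3l have no array value here, since no probe set carried only their symbol. The cells were RAW264.7, a mouse macrophage-like tumour line, made by chemical transfection to express murine LXRα stably. LXRα is a nuclear receptor for oxysterols that binds DNA together with a retinoid X receptor (RXR). One culture received DMSO, the solvent, and the other received the LXR agonist GW3965 at 1 µM together with the RXR agonist LG268 at 100 nM, each for 24 h. Both groups carried the introduced LXRα, each had 1 Affymetrix array, and neither ligand was given alone, so all folds below compare 1 array with 1 array and carry no test. The sources used here do not say whether the line was 1 clone.

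Glycolysis converts glucose to pyruvate in the cytosol, and in activated macrophages much of that pyruvate leaves the cell as lactate. Under low oxygen the transcription factor HIF-1, a dimer of HIF-1α (gene Hif1a) and ARNT, binds hypoxia response elements and raises the transcription of most glycolytic genes, of the glucose carrier GLUT1 and of genes for mitophagy, collagen hydroxylation and vasodilation. At normal oxygen, prolyl hydroxylases of the EGLN family mark HIF-1α for destruction, so that its activity is set mainly at the level of the protein and not of its mRNA. The comparison of ligands with DMSO was made here to see how this programme stood after LXR and RXR activation.

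The array signals were MAS5 values in arbitrary units, both arrays having a 2% trimmed mean of 2500.0. A floor of 276.4, the median of all probe sets other than controls, was set under the signals, and 11078 genes were above it on at least 1 array. Precision is limited by the number of arrays. Over 4866 genes, probe sets of the same gene gave an SD of 0.28 for a single log2 ratio. This SD holds only what differs between probe sets of a gene, and not error that they share. It was taken over genes of all signals, and differences between cultures were not measured. All 10 macrophage markers examined were above the floor on both arrays, and they had no common direction. Mpeg1 was 2.03-fold and Fcgr1 1.53-fold higher with the ligands, though the other Fcgr1 probe set had a log2 ratio of 0.20. Csf1r, Cd68 and Lyz2 had log2 ratios of 0.06, 0.30 and 0.12, and Ptprc, Itgam, Adgre1, Spi1 and Cd14 had -0.27, -0.21, -0.15, -0.08 and -0.01. Of 7 markers of other lineages on the array, 6 were below the floor on both, and the granulocyte gene Elane was above it only with the ligands (200.4 and 334). The summed signal of these 7 was 536 with DMSO and 1005 with the ligands. Apart from Elane with the ligands, these sums add up signals below the floor, so no direction is read from them. The summed signal of the macrophage markers was 583100.3 with DMSO and 634824 with the ligands. The part of these markers in the results was not tested. Because RNA came from whole cultures, fewer cells of a kind and less RNA per cell cannot be told apart.

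Most members were slightly brighter on the ligand array, and few differed by much. All 29 members were above the floor on both arrays by the brightest probe set of each, which stands for the gene below. No member was at least 2-fold apart, against 2.45% of all measured genes, although P4ha2 passed 2-fold when the ratios were centred on the median of all genes. The 2 members at least 1.5-fold apart were P4ha2 and Eno2, both higher with the ligands. They made up 6.90% of the members, close to the 6.36% of all measured genes that were at least 1.5-fold higher. No member was at least 1.5-fold lower, compared with 4.77% of measured genes, a share that is not matched for signal and fell with it, as given below. The log2 ratio lay above 0 for 22 of 29 members (75.9%), against 46.2% of measured genes. After quantile normalization, which gives both arrays 1 distribution of signals, it lay above 0 for 18 of 29, and the glycolysis members went from 17 higher and 4 lower to 14 and 7. Gapdh, Ndrg1, Pfkp and Pgk1, all at 0.05 or less before, changed sign. The median log2 ratio was 0.18 for the 21 glycolysis members and 0.07 for the 8 hypoxia members, beside -0.03 for all measured genes. Those 8 are 3 oxygen-sensing genes, with a median of -0.03, and 5 hypoxia-responsive genes, with one of 0.19. With ratios averaged over probe sets the medians of the 21 and the 8 were 0.20 and 0.19. Without _s_at and _x_at probe sets both were 0.16. The gap between the 2 groups of members thus depends on how probe sets are summarised and on counting the oxygen-sensing genes with the others.

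**Figure D1:**
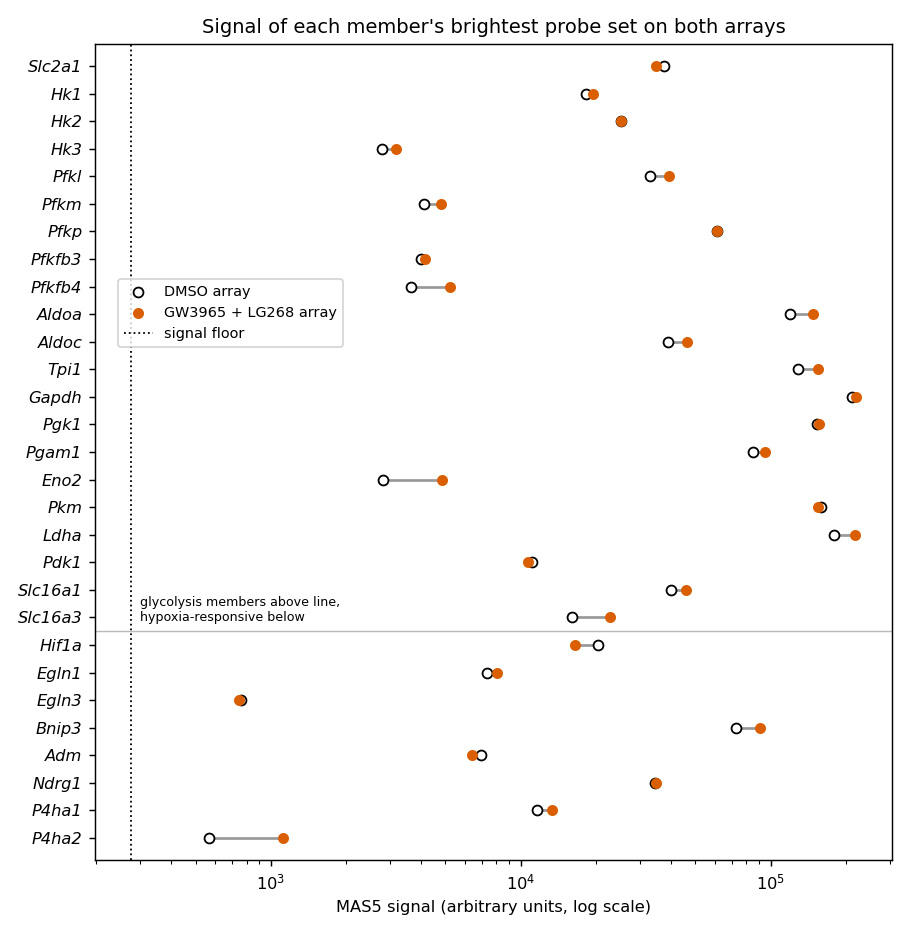
MAS5 signal (arbitrary units, log axis) of the brightest probe set of each of the 29 members, on the DMSO array (open) and the ligand array (filled), with the signal floor of 276.4 as a dotted line. The pairs lie close together for most genes, and the widest gaps belong to P4ha2 (567 and 1118) and Eno2 (2822 and 4852); levels of different genes are not comparable because probe sets differ in brightness.

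The carrier and the kinases at the entry of glycolysis differed little between the arrays. Slc2a1, which encodes the glucose transporter GLUT1, gave signals of 37616 (DMSO) and 34732 (ligands), a log2 ratio of -0.12. Its next probe set was close to that at -0.10, while the third was higher at 0.42 (17799 and 23799), so the direction was not shared by its probe sets. Hexokinases trap glucose in the cell by phosphorylating it. Hk2, the inducible hexokinase, was nearly equal on the arrays (25165 and 25122). Hk1, the housekeeping form, had 18330.4 and 19439, and its second probe set had a log2 ratio of 0.39. Hk3, a myeloid hexokinase, had 2797 and 3162, a log2 ratio of 0.18, but -0.26 by its other probe set. None of the hexokinase ratios of the brightest probe sets exceeded the probe set SD.

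Phosphofructokinase commits the sugar to glycolysis, and its subunits were equal or slightly brighter with the ligands. Pfkl, the liver-type subunit, had 32986 and 39280.4, a log2 ratio of 0.25, and all 3 of its probe sets were higher with the ligands, the dimmest of them 1.85-fold (551 and 1017). Pfkm, the muscle-type subunit, had 4121 and 4784, a log2 ratio of 0.22. Pfkp, the platelet-type subunit, had 61043 and 61178 by its brightest probe set. Its other probe sets pointed in opposite directions, at 0.28 and -0.26, so no direction is given for it. The enzymes of the Pfkfb family make and remove fructose 2,6-bisphosphate, the strongest activator of phosphofructokinase. Pfkfb4 was 1.43-fold higher from its single probe set (3651 and 5228). Pfkfb3, the highly kinase-active form, had 4000.1 and 4137, a log2 ratio of 0.05, and 0.44 by its second probe set.

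Aldolase and triose phosphate isomerase split the sugar into interconvertible trioses, and the brightest probe sets of these 3 genes had nearly equal ratios, 0.26 to 0.31. Tpi1 had 128676 and 154827, and its 3 probe sets gave log2 ratios between 0.26 and 0.27. Aldoa, the main aldolase of most tissues, had 119396 and 147538, a 1.24-fold higher signal. All 5 Aldoa probe sets were higher with the ligands, with log2 ratios of 0.21 to 0.55, and all of them are of the kind (_x_at) that may also detect related transcripts. Aldoc, the brain-type aldolase, had 38741 and 46257, a log2 ratio of 0.26, but its dimmer probe set was at -0.02.

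Among the enzymes from glyceraldehyde phosphate to pyruvate, only Eno2 was 1.5-fold apart. Gapdh could be read only from the 3 control probe sets for its 3′, middle and 5′ parts, which had log2 ratios of 0.01, 0.08 and 0.05. The 5′ set had signals of 212073 and 220134. The ratio of the 3′ to the 5′ set, a sign of RNA integrity, was 0.853 and 0.826. Pgk1, phosphoglycerate kinase, had 153541 and 156323, with probe sets from 0.03 to 0.37. Pgam1, phosphoglycerate mutase, had 85207 and 94587, a log2 ratio of 0.15. Eno2, the neuron-type enolase that is also hypoxia-responsive, was 1.72-fold higher (2822 and 4852). Its log2 ratio of 0.78 was the 365th highest of the 11078 measured genes and rests on 1 probe set. Pkm, pyruvate kinase and the last enzyme of the pathway, had 159169 and 155485, a log2 ratio of -0.03.

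Of the 4 genes that handle pyruvate and lactate, 3 were brighter with the ligands and Pdk1 was nearly equal by the brightest probe sets. Only Slc16a3 lay beyond the probe set SD of 0.28. Ldha, the lactate dehydrogenase subunit that favours lactate formation, had 179431 and 216854, a log2 ratio of 0.27. Slc16a3, the exporter MCT4, was 1.42-fold higher (16053 and 22717) from its single probe set. Slc16a1, the carrier MCT1, had 39864 and 45778, a log2 ratio of 0.20, and its other probe set was below the floor on both arrays. Pdk1 encodes a kinase that inhibits pyruvate dehydrogenase and so limits the conversion of pyruvate to acetyl-CoA. Its brightest probe set had 11106 and 10729.6, a log2 ratio of -0.05. All 4 Pdk1 probe sets were lower with the ligands, and the dimmest was 1.66-fold lower (2394 and 1446). Pdk1 was thereby the glycolysis member with the most probe sets on the lower side.

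**Figure D2:**
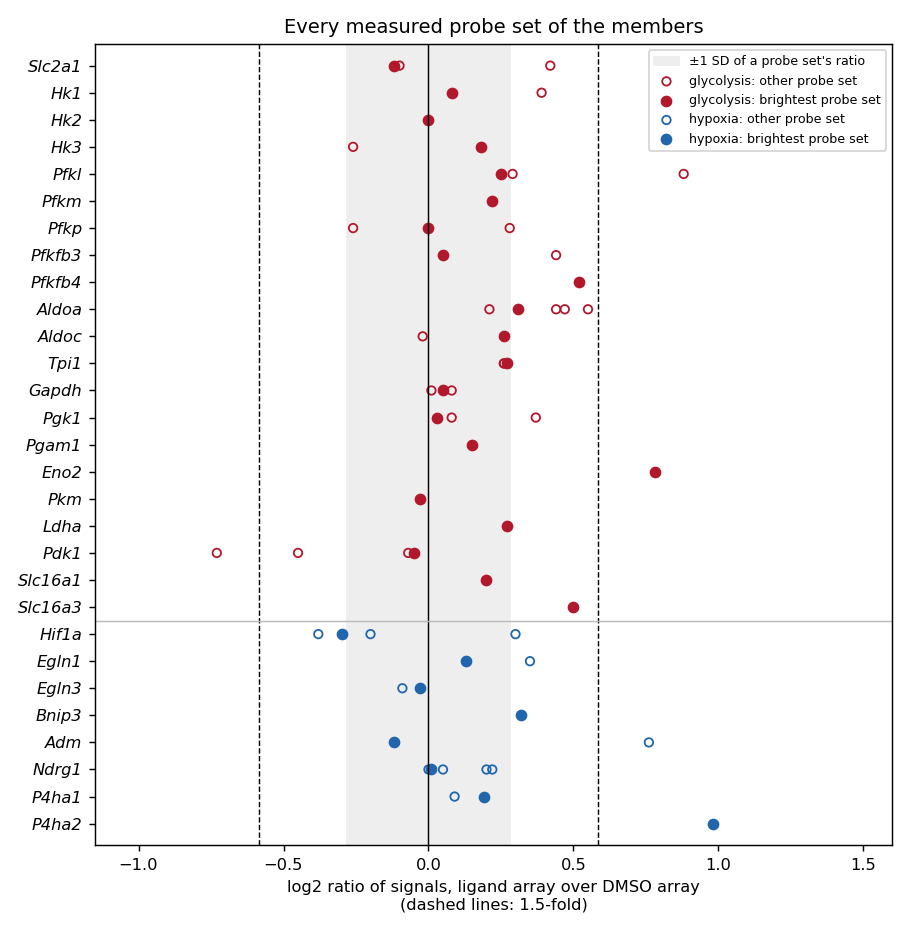
Log2 ratio of the ligand over the DMSO signal for all 63 member probe sets above the floor on at least 1 array, with the brightest probe set of each gene filled, the others open, the grey band at 1 SD (0.28) to each side of 0 and dashed lines at 1.5-fold. Most points lie in or near the band, the 3 Tpi1 probe sets fall together at 0.26 to 0.27, and Adm, Pdk1 and Pfkl each have a probe set outside the dashed lines while their brightest one is inside.

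The oxygen sensors showed no common direction. Hif1a, the regulated HIF subunit, had 20331 and 16499.9, a 1.23-fold lower signal with the ligands and the lowest log2 ratio of the members, -0.30. A second probe set of Hif1a went the other way at 0.30 (4584 and 5661). Of 2 dimmer ones, 1 was at -0.20, and the other was above the floor only with DMSO (359 and 198). With ratios averaged over probe sets Hif1a was at -0.14, and Pdk1 was lower at -0.32. Egln1, the main prolyl hydroxylase that marks HIF-1α, had 7346 and 8064, a log2 ratio of 0.13, and 0.35 by its second probe set. Egln3, a hydroxylase whose own transcription is raised by HIF, had 762 and 746 by its brightest probe set. Its other probe set was above the floor only with DMSO (294 and 133).

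Of the hypoxia-responsive members, only P4ha2 passed 1.5-fold by the brightest probe set. P4ha1 and P4ha2 encode the catalytic subunits of collagen prolyl 4-hydroxylase. P4ha2 had signals of 567 and 1118, a 1.97-fold higher value, the 196th highest ratio of all measured genes, from a single dim probe set. P4ha1 had 11648 and 13328, a log2 ratio of 0.19, and its other probe set was at 0.09. Bnip3, a mitochondrial receptor for mitophagy, was 1.25-fold higher (72505 and 90382). Ndrg1, a stress- and hypoxia-induced gene, had 34579.6 and 34924, and its 5 probe sets lay between 0.00 and 0.22. Adm encodes the vasodilator peptide adrenomedullin, and its probe sets disagreed. The brighter one had 6960.1 and 6409.8, a log2 ratio of -0.12, and the other was 1.69-fold higher with the ligands (4664 and 7878). The brighter Adm set is of the _x_at kind, and which set reads the transcript better was not tested.

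Against the SD of a single probe set, 22 of the 29 members lay within 0.28 of 0. The 6 beyond it on the higher side were Pfkfb4, Aldoa, Eno2, Slc16a3, Bnip3 and P4ha2, 20.7% of the members, while 17.9% of all measured genes were that far above 0. Hif1a was the 1 member beyond it on the lower side (3.45%), where 18.6% of measured genes lay. That 18.6% is over genes of all signals and was not taken by class of signal, so it is not matched to the members. After quantile normalization Aldoa and Bnip3 were each at 0.21, within 0.28 of 0, while the others named on the higher side stayed beyond it. The share of members on the higher side is near the background and is no result about the members. Of the 18 members with at least 2 measured probe sets, 9 had all of them higher with the ligands, 2 (Pdk1 and Egln3) had all of them lower and 7 had both signs. Those shares were 50%, 11.1% and 38.9%, and over the 5402 such genes of the array they were 21.9%, 26.4% and 51.8%. Over all 63 measured member probe sets, 45 were higher (71.4%) and 18 lower, while 47.3% of all 20734 measured probe sets were higher.

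The share of genes above 0 differed between classes of signal, and the brightest class stood apart. Among the 121 genes with a brighter signal above 100000, 78.5% had a log2 ratio above 0, with a median of 0.08. The 6 members in that class, all glycolytic, had a median of 0.16, with 5 of them above 0. Between 50000 and 100000 the 283 genes had a median of 0.01 (51.9% above 0) and the 3 members one of 0.15. Between 20000 and 50000 the 921 genes had a median of -0.03 (44.3% above 0) and the 8 members one of 0.11, with 5 above 0. Between 2000 and 10000 the 4426 genes had a median of -0.03 (44.6% above 0) and the 7 members one of 0.18, with 6 above 0. The remaining members were 2 below 2000, with a median of 0.47 against -0.01, and 3 between 10000 and 20000, with 0.08 against -0.05, where 49.1% and 40.6% of the genes lay above 0. Genes at least 1.5-fold lower made up 8.72% of the class below 2000 and 3.19% between 2000 and 10000. From 10000 upwards the classes had 1.98%, 1.74%, 0.707% and 0%, so few lower genes were found at the signals of most members. The members' medians lay above those of genes in the same signal class in all 6 classes, though some classes held only 2 or 3 members. After quantile normalization the classes were not taken again. The members of the brightest class were then at 0.21 (Aldoa), 0.17 (Tpi1), 0.22 (Ldha), 0.00 (Gapdh), -0.04 (Pgk1) and -0.11 (Pkm). The part of signal strength in the result was not tested.

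**Figure D3:**
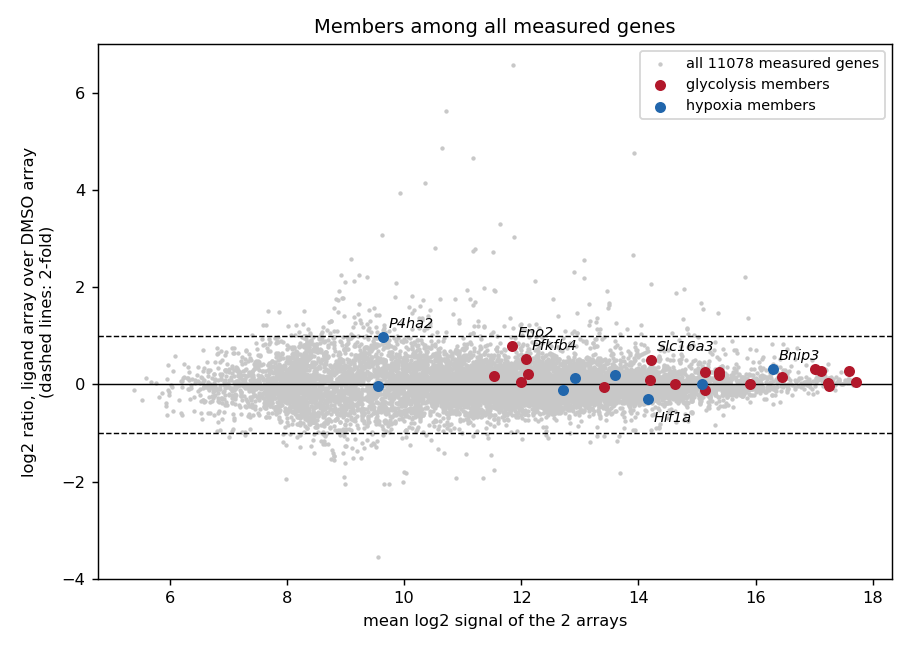
Log2 ratio of the ligand over the DMSO array against the mean log2 signal of both arrays for the 11078 measured genes (grey), with the 21 glycolysis and 8 hypoxia members (oxygen-sensing genes included) coloured and dashed lines at 2-fold. The members lie inside the dashed lines, and those at the right, above a signal of 100000, sit at or slightly above 0.

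To set these values beside the regulatory sequence, the 250 bases upstream of each RefSeq transcript start (GRCm38.p6) were searched for the core of the hypoxia response element, spelled ACGTG or GCGTG, on both strands. A window was held for 30 of the 32 members (43 windows, since some genes have several starts, and windows of neighbouring starts overlap). These members include Gpi1 and Eno1, which have no array value here. A core was found in 35 of the 43 member windows (81.4%), in 38.6% of all 32851 promoter windows and in 55.9% of the windows of measured genes. The median GC content was 61.6% in the member windows, 52.4% in all windows and 59.6% in those of measured genes. ACGTG was in 48.8% of the member windows, in 16.6% of all and in 21.9% of those of measured genes, and GCGTG was in 53.5%, 28.2% and 44.7%. The members were chosen as glycolytic and hypoxia-responsive genes, so their shares are a description and not a test. Each palindrome CACGTG, also the E-box of other factors, counts as 2 overlapping matches of ACGTG. The windows of P4ha2 and Eno2, the members with the largest ratios, and of Adm, whose probe sets disagreed, are shown with those of Bnip3 and Ldha, which held the most matches. They are written 5′ to 3′ towards the start site, with matches of either core on either strand in capitals.
P4ha2 (chr11:54100674-54100923, plus strand): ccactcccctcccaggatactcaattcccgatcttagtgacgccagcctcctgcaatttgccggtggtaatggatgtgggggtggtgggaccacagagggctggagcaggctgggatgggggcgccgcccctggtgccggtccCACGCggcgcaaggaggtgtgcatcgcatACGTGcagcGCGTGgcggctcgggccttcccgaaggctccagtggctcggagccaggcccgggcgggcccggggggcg
Eno2 (chr6:124769674-124769923, minus strand): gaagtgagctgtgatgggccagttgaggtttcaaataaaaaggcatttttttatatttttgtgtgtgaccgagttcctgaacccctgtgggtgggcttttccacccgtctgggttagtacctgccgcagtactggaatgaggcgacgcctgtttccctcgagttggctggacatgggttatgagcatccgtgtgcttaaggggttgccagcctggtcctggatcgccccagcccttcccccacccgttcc
Adm (chr7:110627407-110627656, plus strand): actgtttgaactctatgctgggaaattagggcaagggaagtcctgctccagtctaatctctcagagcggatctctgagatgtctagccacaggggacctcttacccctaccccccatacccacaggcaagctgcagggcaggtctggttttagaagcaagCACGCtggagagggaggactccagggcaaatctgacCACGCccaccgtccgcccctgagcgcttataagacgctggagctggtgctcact
Bnip3 (chr7:138909507-138909756, minus strand): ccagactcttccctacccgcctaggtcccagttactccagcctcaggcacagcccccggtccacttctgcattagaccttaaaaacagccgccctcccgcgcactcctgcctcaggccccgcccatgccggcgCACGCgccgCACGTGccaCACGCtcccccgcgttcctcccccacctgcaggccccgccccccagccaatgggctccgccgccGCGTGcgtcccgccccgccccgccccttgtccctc
Ldha (chr7:46845554-46845803, plus strand): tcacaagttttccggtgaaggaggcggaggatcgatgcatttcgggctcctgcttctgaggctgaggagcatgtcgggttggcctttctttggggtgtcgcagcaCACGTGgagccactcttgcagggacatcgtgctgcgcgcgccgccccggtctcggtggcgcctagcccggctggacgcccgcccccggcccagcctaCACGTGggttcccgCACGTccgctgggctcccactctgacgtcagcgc

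P4ha2, with a log2 ratio of 0.98, held 3 cores in its window, at 107, 78 and 69 bases upstream of the start. Eno2, at 0.78, held none, which says only that these letters are not in this window. Adm held 2, both GCGTG on the opposite strand, at 90 and 54 bases. Bnip3, at 0.32, held 5 matches, of which 2 come from a CACGTG palindrome. The first window of Ldha, at 0.27, also held 5, of which 4 come from a pair of CACGTG palindromes. Hif1a, the member with the lowest ratio by the brightest probe sets, held 3 matches, of which 2 come from a CACGTG palindrome. A match is a description of the letters and not a bound site, and no binding was measured here.

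The neighbouring genes of the pathway, from lists apart from the members, gave a similar picture with some larger differences. Of 34 further genes of glycolysis and pyruvate handling, 29 had a probe set and 23 were measured. Their median log2 ratio was 0.07, and 16 (69.6%) lay above 0, against 46.2% of all measured genes. At 1.5-fold, 3 were higher (13.0%) and none was lower, against 6.36% and 4.77%. Some of the 23 counted as measured through 1 array only. Among the 20 above the floor on both arrays the median was also 0.07, and 14 lay above 0. Slc2a6, which encodes the lysosomal hexose transporter GLUT6, was 2.38-fold higher (3163 and 7513). Bsg, basigin, the chaperone that brings MCT1 and MCT4 to the plasma membrane, was 1.64-fold higher (40793 and 66849). Minpp1, an inositol polyphosphate phosphatase that also acts on 2,3-bisphosphoglycerate, was 1.66-fold higher (3433 and 5711), although another of its probe sets was at -0.01. Slc2a6 and Bsg each rest on 1 measured probe set.

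Of 46 further HIF pathway genes, 43 had a probe set and 36 were measured. Their median log2 ratio was 0.20, and 27 (75%) lay above 0. At 1.5-fold, 7 were higher (19.4%) and 1 was lower (2.78%), against 6.36% and 4.77% of all measured genes. Of these, Cox4i2 and Cxcr4 counted as measured only through the ligand array, and Ndufa4l2, the lower gene, only through the DMSO array. Among the 31 genes above the floor on both arrays the median was 0.19, and 24 lay above 0. Both lists of further genes were chosen with earlier results of these data known, so their shares are no test. The HIF subunits and regulators that were measured were below 1.5-fold by the brightest probe set of each. Arnt, the partner of HIF-1α, had 2104 and 2800.2, a log2 ratio of 0.41, with 5 probe sets from -0.20 to 0.60. Hif3a, another HIF α subunit, had 439 and 549, a log2 ratio of 0.32. Vhl, the ubiquitin ligase subunit that recognises hydroxylated HIF-1α, had 2871 and 3269. Hif1an, the asparagine hydroxylase FIH, had 1108 and 1488, and Egln2, another prolyl hydroxylase, had 4512 and 5461, log2 ratios of 0.43 and 0.28. Epas1, which encodes HIF-2α, was below the floor on both arrays.

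Among the responsive genes of that list, Bhlhe40, a circadian and hypoxia-responsive repressor, was 2.46-fold higher (5875 and 14426). Vegfa, the angiogenic growth factor, was 2.35-fold higher (2636 and 6201), and its other probe set was at 0.90. Bhlhe41, a relative of Bhlhe40, was 1.97-fold higher at low signals (371 and 729.6). Hmox1, the haem-degrading oxygenase that NRF2 also induces, was 1.82-fold higher (7051 and 12832). Selenbp1, a selenium-binding protein, was 1.57-fold higher (11891 and 18664), with its second probe set at 0.62. These genes are known to answer to several stimuli besides low oxygen. Cox4i2 (38.3 and 464) and Cxcr4 (125 and 419) were above the floor only with the ligands, which bounds their ratios at 1.68-fold or more and 1.51-fold or more. Ndufa4l2 was above it only with DMSO (455 and 232), at least 1.65-fold lower. Car9, the carbonic anhydrase widely used as a hypoxia marker, had 711 and 501, a log2 ratio of -0.50.

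**Figure D4:**
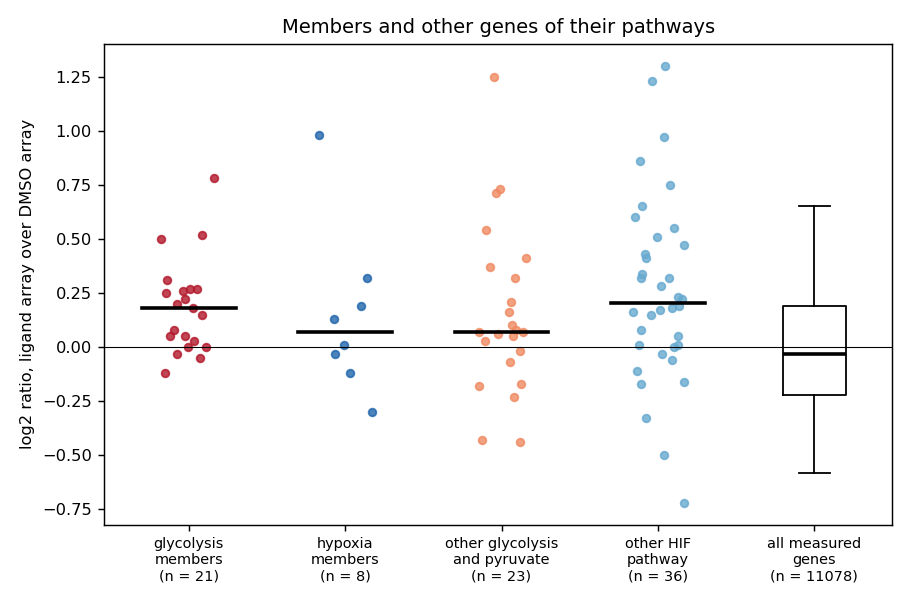
Log2 ratio of the ligand over the DMSO array for the measured genes of the 4 lists, 1 point a gene with the median as a bar, beside a box of all 11078 measured genes (median, quartiles, whiskers at the outer 5% on each side). The list medians, from left to right, are 0.18, 0.07, 0.07 and 0.20, beside -0.03 for all measured genes.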

How the data were processed

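RNA of 2 RAW264.7 cultures was hybridised to 1 Affymetrix mouse array each. The deposited values are linear intensities, 1 per probe set, made by the authors with MAS5 per the submitters' processing notes, in a version the sources used here do not give, and were used unchanged. MAS5 brings all arrays to 1 trimmed mean, so ratios are relative to the bulk of the array.

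Of 45101 probe sets, 34958 carried 1 symbol in the platform annotation, 932 several and 9211 none; 34754 symbols were updated through the gene identifier to RefSeq GRCm38.p6. Signals under the 50th percentile of probe sets other than the 64 controls (276.4) were raised to it before log2 ratios were taken. The probe set with the highest mean log2 signal stood for its gene, a control probe set only where no other named the gene (Gapdh), and a gene counted as measured when either array exceeded the floor. Where 1 array was under the floor, the fold is a bound. The probe set SD is the SD of the difference between a gene's 2 brightest probe sets over the square root of 2. With 1 array per group no test was made, and folds of 1.5 and 2 describe these arrays.

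All members were described whatever their values. Of the other lists, genes at least 1.5-fold apart were named, and Epas1, Arnt, Vhl, Hif1an, Egln2 and Vegfa whatever their values; Car9, Hif3a, Mpeg1, Fcgr1, Ptprc, Itgam, Adgre1, Spi1, Cd14, Csf1r, Cd68, Lyz2 and Elane were named after their values were seen. Members and lists were chosen with earlier results of these data known. The summary per gene was tested on simulated data with 3-fold changes, so that test does not speak to the smaller differences of the members. Python 3.11.15, numpy 2.4.6 and pandas 2.3.3 were used.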

Additional observations from a re-analysis of the deposited data

How the results depend on the processing

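Over 8 other settings (lower and higher floors at the 25th and 75th percentiles, no floor with 32 added to each signal, quantile normalization, centring, averaging probe sets, dropping _s_at and _x_at probe sets, and requiring signal over the floor on each array), the median log2 ratio ranged from 0.15 to 0.20 for the glycolysis members and from 0.06 to 0.19 for the hypoxia members, oxygen-sensing genes included. The further glycolysis genes ranged from 0.07 to 0.16 and the further HIF pathway genes from 0.18 to 0.23. Members at least 2-fold apart numbered 1 after centring, when P4ha2 passed, and 0 otherwise, also at 3-fold. Members at least 1.5-fold apart numbered 1 with the floor at the 75th percentile, which P4ha2 did not pass, and 3 without _s_at and _x_at probe sets, when Adm was added and Aldoa could not be read. No paired analysis was possible because each group had 1 array. Weak signals limit P4ha2 and Egln3.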
